A study of Mus musculus with 16 samples.

Results

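Chromatin accessibility was examined around 8 mouse genes that encode regulators of monocyte and dendritic cell fate: Klf4, Nr4a1, Zeb2, Id2, Batf3, Irf4, Zbtb46 and Tcf4. Accessibility was measured by ATAC-Seq, a method in which transposase places adapters preferentially in open DNA and stretches dense in such insertions are called as peaks. Overlapping peaks of 16 libraries were merged into 90549 regions, and 225 of these lay within 150 kb of the 5′ end of 1 of the 8 genes. They numbered 8 at Tcf4, 15 each at Klf4 and Irf4, 22 at Zeb2, 23 at Id2, 38 at Zbtb46, 41 at Batf3 and 63 at Nr4a1. Proximity does not assign a region to a gene: the member was the nearest protein-coding gene for all 15 Klf4 and all 8 Tcf4 regions, but for only 6 of 38 Zbtb46, 12 of 41 Batf3 and 14 of 63 Nr4a1 regions.

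The study asked how GATA2, and a GATA2 variant found in human disease, act on progenitor chromatin. All cells were mouse fetal liver hematopoietic progenitors immortalized with HoxB8 under estrogen control, grown in β-estradiol, infected with a retrovirus that carries GFP, cultured for 3 days and isolated by FACS as GFP+ cells. hi-77+/+ cells keep the -77 enhancer of Gata2 and were infected with empty virus (hi-77+/+ empty). hi-77-/- cells lack this enhancer and were given empty virus (hi-77-/- empty), the GATA2 virus or a virus with 9aa-Ins, a GATA2 that carries 9 extra amino acids between its zinc fingers. There were 4 libraries in each group. The labels name no separate lines within a genotype, so enhancer deletion and cell line cannot be told apart, and p-values measure the spread between these libraries only. GATA2 and 9aa-Ins came from a virus rather than from the Gata2 locus.

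Monocytes and dendritic cells arise from shared myeloid progenitors, and the choice between them rests on a small set of transcription factors. Klf4 is a zinc finger factor that promotes monocyte differentiation, and Nr4a1, an orphan nuclear receptor, is needed for patrolling monocytes. Tcf4, also called E2-2, is the E protein that maintains plasmacytoid dendritic cells, and Id2 binds E proteins and keeps them off DNA. Zeb2 is a zinc finger repressor that represses Id2 and favors plasmacytoid over cDC1 fate. Batf3, an AP-1 family protein, is required for cDC1, the classical dendritic cells that cross-present antigen, whereas Irf4 acts in cDC2, the other classical subset. Zbtb46 marks the classical dendritic cell lineage.

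Peak lists differed in length, with the fewest peaks in GATA2 replicate 1 (50195) and the most in replicate 2 of hi-77+/+ empty (112267), so the 49000 most significant peaks of each library were compared, and the full lists served as a check. The read depth of the libraries is unknown. Their background pileup, which scales with depth only where reads were extended alike, ranged from 0.302 to 0.890. The strength of a peak is given as a rank score, the share of a library's 49000 peaks ranked at or below it, from 0 (no peak among the 49000) to 100. For each comparison of a group with its reference, a region opened where all 4 libraries of the group and 0 of the 4 reference libraries had a peak in it, and closed where only the 4 reference libraries did. Bulk ATAC-Seq cannot tell a site open in fewer cells from a site less open in each cell. At the -77 enhancer itself the best peak had a fold enrichment over background of 22.3 to 28.1 in the 4 hi-77+/+ empty libraries and of 4.75 to 9.00 in 10 of 12 hi-77-/- libraries, with no peak in 2 GATA2 libraries. Promoters of all 7 hematopoietic markers had a peak in every library, and those of 5 hepatocyte markers had none in any. Promoter peaks of 4 mast cell markers numbered 1 in each hi-77+/+ empty library, 1 to 2 in hi-77-/- empty, 2 to 3 in GATA2 and 1 to 2 in 9aa-Ins libraries. Those of 4 B lymphoid markers numbered 1 to 3, 2, 1 and 2 in the same order of groups, those of 5 erythroid markers 3, 2 to 4, 2 to 3 and 2, and those of 3 endothelial markers 0 to 1, 1, 1 and 1. Fcer1a, Pax5, Hbb-bt, Cdh5 and Kdr had none in any library, Cpa3 had one in the 4 GATA2 libraries only, and Cd79a had one in 3, 4, 0 and 4 libraries of the groups. The part of mast cells or B lymphoid cells in the differences given here was not tested.

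The sequences behind the main patterns were read from the GRCm38 reference of RefSeq, as the central 200 bp of each region on the plus strand, with distances given from the gene 5′ end to the region centre (negative is upstream). Capitals mark matches to motif letters on either strand: GATA (the letters GATA with A or T before them and A or G after them), PU.1-type ETS (GAGGAAGT), AP-1 (TGANTCA), C/EBP (TTGCNNAA), RUNX (TGTGGT) and IRF (a pair of GAAA separated by NN). E-boxes (CANNTG) were counted but not capitalized. A match is a run of letters and not a shown binding site. Of the 5 regions that opened with GATA2, none of which had a peak among the 49000 of a 9aa-Ins library, 2 are shown first and were picked because they hold more than 1 GATA match. Of the 3 not shown, 1 held 2 matches and the others held 1 each:
Id2 -131.8 kb, chr12:25228843-25229042: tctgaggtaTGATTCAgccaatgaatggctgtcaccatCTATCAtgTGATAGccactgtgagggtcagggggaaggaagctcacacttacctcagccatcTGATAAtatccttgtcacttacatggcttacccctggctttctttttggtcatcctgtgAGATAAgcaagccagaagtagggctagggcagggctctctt
Nr4a1 -106.2 kb, chr15:101147987-101148186: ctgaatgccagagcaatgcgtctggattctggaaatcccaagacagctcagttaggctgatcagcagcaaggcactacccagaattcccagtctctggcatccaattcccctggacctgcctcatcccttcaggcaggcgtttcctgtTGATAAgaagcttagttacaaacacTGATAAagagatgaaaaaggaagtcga

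In the reverse case, 7 regions had a peak in all hi-77-/- empty and 9aa-Ins libraries and none among the 49000 in GATA2 libraries, and 2 of these 7 held a GATA match. The strongest such region of Klf4, Id2, Irf4 and Batf3 is shown as an example, and that of Id2 holds a match:
Klf4 -53.9 kb, chr4:55586242-55586441: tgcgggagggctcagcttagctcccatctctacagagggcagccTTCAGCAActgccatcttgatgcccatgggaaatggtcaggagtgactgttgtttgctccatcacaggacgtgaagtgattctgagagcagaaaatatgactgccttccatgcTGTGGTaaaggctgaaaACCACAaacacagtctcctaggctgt
Id2 -67.8 kb, chr12:25164855-25165054: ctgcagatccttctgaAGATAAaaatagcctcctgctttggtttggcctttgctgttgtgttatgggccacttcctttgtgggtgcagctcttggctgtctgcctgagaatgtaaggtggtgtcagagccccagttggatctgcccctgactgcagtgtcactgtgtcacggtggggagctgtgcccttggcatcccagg
Irf4 +64.3 kb, chr13:30813409-30813608: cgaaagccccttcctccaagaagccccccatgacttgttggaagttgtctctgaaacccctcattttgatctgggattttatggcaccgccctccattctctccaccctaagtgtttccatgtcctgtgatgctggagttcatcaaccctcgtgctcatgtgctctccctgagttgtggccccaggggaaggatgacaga
Batf3 +68.6 kb, chr1:191166379-191166578: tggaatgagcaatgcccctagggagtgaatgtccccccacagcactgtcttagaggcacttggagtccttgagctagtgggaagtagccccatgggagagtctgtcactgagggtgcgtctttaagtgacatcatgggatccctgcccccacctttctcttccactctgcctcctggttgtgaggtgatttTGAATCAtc

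The Id2 region with the largest gain after enhancer deletion held none of the capitalized motifs, and a Zeb2 intron region that had a peak with 9aa-Ins alone held an AP-1 match:
Id2 -22.4 kb, chr12:25119426-25119625: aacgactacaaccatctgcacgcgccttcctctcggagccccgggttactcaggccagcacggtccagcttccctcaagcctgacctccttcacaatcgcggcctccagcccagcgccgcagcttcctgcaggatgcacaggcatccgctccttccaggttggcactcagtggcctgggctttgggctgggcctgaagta
Zeb2 +31.7 kb, chr2:45085628-45085827: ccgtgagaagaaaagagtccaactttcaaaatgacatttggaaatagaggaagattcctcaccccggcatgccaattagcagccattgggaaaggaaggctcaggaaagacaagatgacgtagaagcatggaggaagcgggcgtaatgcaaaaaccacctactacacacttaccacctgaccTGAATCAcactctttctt

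Deletion of the -77 enhancer was followed by more openings than closings near the 8 genes. Relative to hi-77+/+ empty, 11 of 225 regions opened (4.89%, against 3.59% of all 90549 regions) and 3 closed (1.33%, against 2.11%). In limma on rank scores, 152 of the 225 regions had a peak in at least 4 libraries and could be tested, of which 41 had higher scores (27%, against 21.2% of 57174 regions tested) and 21 lower scores (13.8%, against 19.2%). The split depended on list length: with the full lists 26 regions were higher and 40 lower. The median score difference was 2.55 over the 152 regions and 0 over all regions tested. Of the 11 regions that opened, 5 lay at Id2, 2 at Nr4a1 and 1 each at Klf4, Zeb2, Batf3 and Zbtb46.

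GATA2 in hi-77-/- cells was followed by more losses than gains. Against hi-77-/- empty libraries 8 regions closed (3.56%, against 2.23% of all regions) and 5 opened (2.22%, against 1.73%). In limma 30 regions had lower scores (19.7%, against 12.4%) and 10 higher scores (6.58%, against 8.5%), and the median difference was -2.14 against 0 over all regions. Of the 8 regions closed with GATA2, 5 were among the 11 that opened after the deletion (62.5%, against 61.3% of all 2021 regions closed with GATA2), and none of the 3 regions closed by the deletion opened with GATA2 (against 5.59% of all 1913). Both comparisons share the hi-77-/- empty libraries, so this overlap is a description only.

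With 9aa-Ins the shares of regions called relative to hi-77-/- empty lay near those of all regions. 9aa-Ins opened 4 regions (1.78%, against 1.35% of all regions) and closed 0 (against 0.171%), and in limma 7 regions had higher scores (4.61%, against 5.29%) and 1 a lower score (0.658%, against 1.75%). No region near Klf4, Id2, Nr4a1 or Irf4 passed the limma threshold in this comparison. With the full lists 23 regions were higher and 0 lower. Compared directly with GATA2, 9aa-Ins libraries had 12 regions open where GATA2 libraries had none (5.33%, against 2.97%) and lacked 5 (2.22%, against 1.47%). Rank scores were higher with 9aa-Ins than with GATA2 for 37 of 152 regions (24.3%, against 16%) and lower for 13 (8.55%, against 8.22%), with a median difference of 3.91 against 0.248 over all regions tested. With the full lists 91 were higher and 6 lower. All 5 regions opened by GATA2 had a peak in 0 of 4 9aa-Ins libraries, as did 65% of the 1565 regions opened by GATA2 genome-wide, although in the full lists 1 of the 5 had a peak in 4 9aa-Ins libraries and another in 1. Of the 8 closed by GATA2, 7 had a peak in 4 of 4 9aa-Ins libraries (87.5%, against 60% of all 2021). The other, at Id2 -119.8 kb, had a peak in all 4 9aa-Ins libraries in the full lists. These overlaps share libraries and are descriptions only. In all, 29 of the 225 regions were called in at least 1 comparison (12.9%, against 10.7% of all regions), whereas 59 (26.2%, against 23.4% of all regions) had a peak in all 16 libraries.

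**Figure D1:**
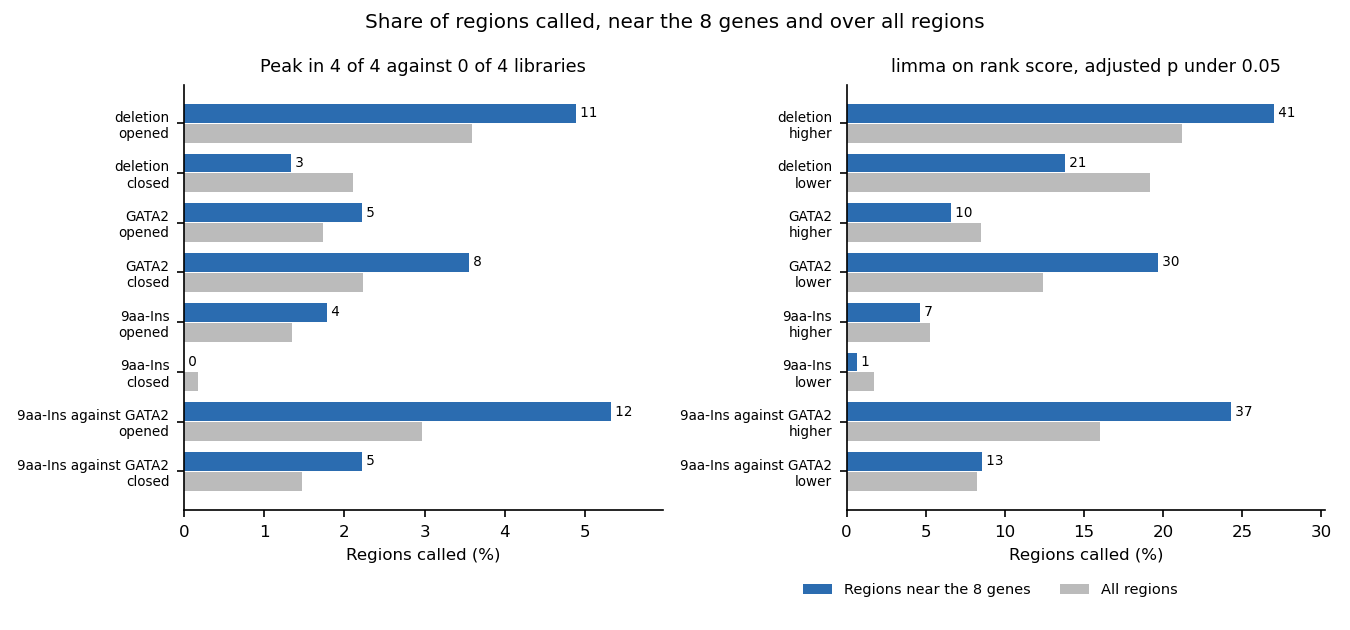
Percentage of regions called (horizontal axes) in each comparison and direction, for the regions near the 8 genes (blue, with their number) and for all regions (grey), by presence in 4 of 4 against 0 of 4 libraries (left) and by limma on rank scores (right). By presence the blue bars exceed the grey ones for regions opened by the deletion (4.89% against 3.59%) and closed by GATA2 (3.56% against 2.23%). They also do so for regions opened by GATA2 (2.22% against 1.73%) and by 9aa-Ins (1.78% against 1.35%). The same holds for 9aa-Ins against GATA2, opened (5.33% against 2.97%) and closed (2.22% against 1.47%). The blue bars are shorter for regions closed by the deletion (1.33% against 2.11%) and by 9aa-Ins (0% against 0.171%).

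The number of peaks per library within 150 kb gave 1 value per gene and library. Klf4 windows held 5, 8, 7 and 6 peaks in hi-77+/+ empty, 8, 10, 10 and 9 in hi-77-/- empty, 7, 7, 5 and 6 in GATA2 and 10, 10, 10 and 9 in 9aa-Ins libraries. Irf4 windows held 4, 3, 4 and 7, then 7, 7, 6 and 7, then 2, 2, 3 and 3, and last 9, 12, 7 and 8 peaks in the same order of groups. At both genes every GATA2 library lay below every hi-77-/- empty and every 9aa-Ins library. Mean peak number fell by 3 at Klf4 and fell by 4.25 at Irf4 with GATA2 (two-sided exact permutation p = 0.0286 for each, adjusted over all genes 0.280), and 9aa-Ins libraries exceeded GATA2 libraries by 3.5 and 6.5 peaks (exact permutation p = 0.0286 for each, adjusted 0.223). With lists of 50% of the length the GATA2 differences were 0 and -0.5 and those between 9aa-Ins and GATA2 -0.25 and 0.75, and with the full lists the exact permutation p at Klf4 was 0.143 with GATA2 and 0.0571 between 9aa-Ins and GATA2. A p of 0.0286 is the smallest that 4 against 4 libraries allow, and 10.2% of 20680 protein-coding genes reached an unadjusted p below 0.05 with GATA2 and 12.8% between 9aa-Ins and GATA2.

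Id2 windows held 13, 13, 13 and 14 peaks in hi-77+/+ empty and 17, 17, 17 and 21 in hi-77-/- empty libraries, and the groups did not overlap. Batf3 windows moved the other way, from 27, 28, 29 and 29 peaks to 22, 25, 20 and 26. The mean differences were 4.75 peaks at Id2 and -5 at Batf3 (exact permutation p = 0.0286 for each, adjusted 0.132), and 21.7% of genes reached an unadjusted p below 0.05 after the deletion. With full lists the Id2 difference was -0.25, and with lists of 50% of the length that at Batf3 was -0.5. GATA2 libraries had 13, 16, 17 and 15 peaks at Id2 and 15, 20, 17 and 16 at Batf3, and 9aa-Ins libraries had 16, 17, 16 and 15 at Id2 and 23, 22, 21 and 24 at Batf3. Batf3 windows thus held 5.5 more peaks with 9aa-Ins than with GATA2 (exact permutation p = 0.0286, adjusted 0.223). With 9aa-Ins against hi-77-/- empty, 5.3% of all genes and none of the 8 had an unadjusted p below 0.05. No protein-coding gene passed an adjusted p of 0.05 in any of the 4 comparisons.

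Peak numbers at the remaining genes did not differ at an unadjusted exact p of 0.05 in any comparison. Nr4a1 windows held 33 to 37 peaks in hi-77+/+ empty, 36 to 44 in hi-77-/- empty, 36 to 45 in GATA2 and 37 to 42 in 9aa-Ins libraries, and Zbtb46 windows 29 to 34, 25 to 31, 27 to 33 and 26 to 28. Zeb2 windows held 7 to 13, 8 to 11, 7 to 12 and 10 to 12 peaks. Tcf4 windows, the poorest in peaks, held 2 to 4, 1 to 4, 3 to 4 and 4. Ranges overlapped between all groups at these genes except where 9aa-Ins lay below hi-77+/+ empty at Zbtb46.

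**Figure D2:**
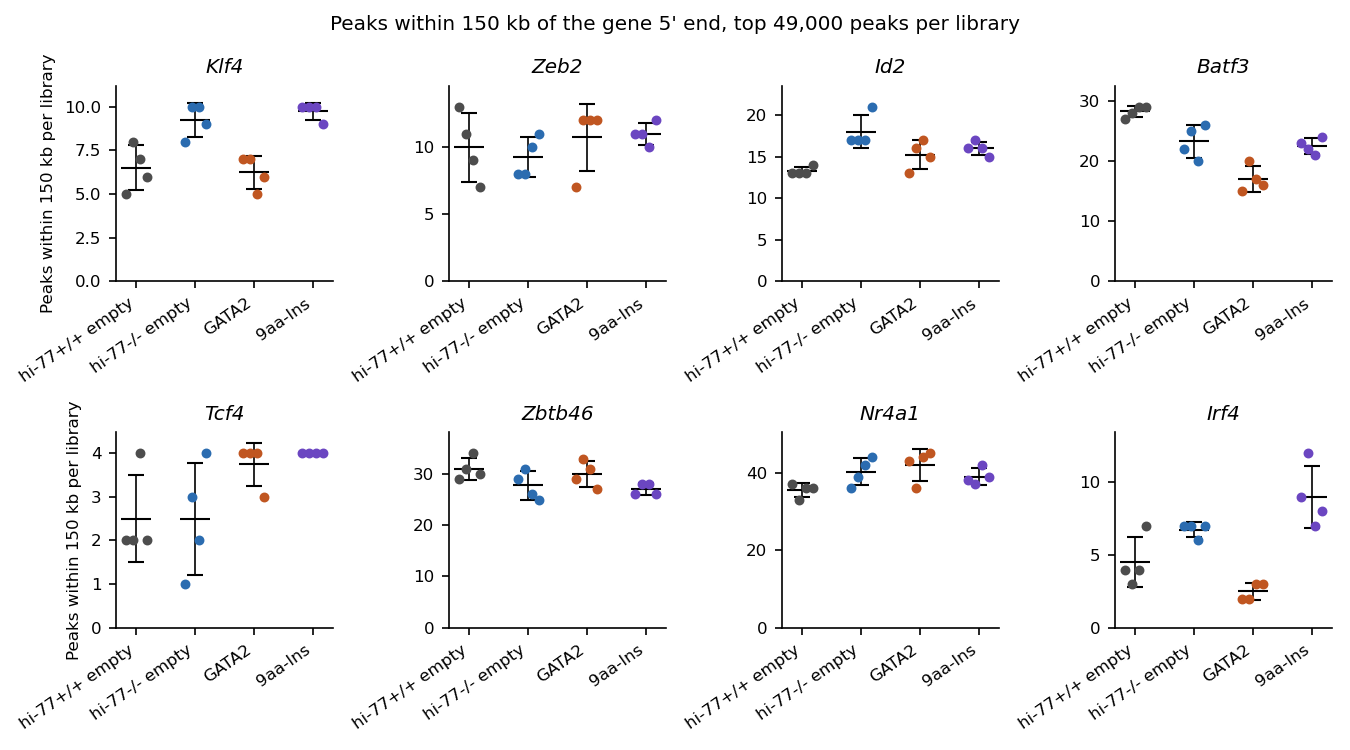
Number of peaks within 150 kb of each gene's 5′ end (vertical axes) among the top 49000 peaks, with a point per library, the group mean as a bar and the SD of 4 libraries as whiskers. GATA2 libraries hold 5 to 7 peaks at Klf4 and 2 to 3 at Irf4, below every hi-77-/- empty and 9aa-Ins library.

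Of the monocyte regulators, Klf4 (ENSMUSG00000003032.8, chr4:55527143-55532466, minus strand) had the simplest pattern, and all of its regions were nearest to Klf4. A region 53.9 kb upstream (chr4:55586129-55586554, in an intron of the noncoding gene Gm12511) had rank scores of 49.2, 57.3, 50.7 and 70.1 in hi-77-/- empty and 35, 51.2, 46.4 and 44.3 in 9aa-Ins libraries. It had no peak among the 49000 in any hi-77+/+ empty or GATA2 library, although the full lists held a weak peak in 2 GATA2 libraries. The score difference was 56.8 (SE 6.60, limma adjusted p = 1.86e-06) after the deletion, -56.8 (adjusted p = 3.12e-06) with GATA2 and -12.6 (adjusted p = 0.350) with 9aa-Ins. Against GATA2, 9aa-Ins libraries were higher by 44.2 (adjusted p = 5.04e-05). With lists of 50% of the length the fall with GATA2 was -14.7 (adjusted p = 0.0781) and the difference between 9aa-Ins and GATA2 was 0.592 (adjusted p = 1), so neither passed. The Klf4 promoter, 0.2 kb upstream, was accessible in every library, with scores of 60.1 to 77.2 in hi-77+/+ empty and 80.5 to 87.5 in hi-77-/- empty libraries. Its rise of 13.8 (SE 3.00, adjusted p = 0.00116) after the deletion became 4.76 (adjusted p = 0.0933) with the full lists, and its differences from hi-77-/- empty were 2.88 with GATA2 (adjusted p = 0.592) and 0.558 with 9aa-Ins (adjusted p = 1). In total 5 of 8 tested Klf4 regions had higher scores after the deletion and 0 lower (over all regions tested, 21.2% and 19.2%). With GATA2 0 of the 8 were higher and 2 lower (over all, 8.5% and 12.4%).

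Nr4a1 (ENSMUSG00000023034.7, chr15:101254269-101274795, plus strand) had regions of both kinds. A region 6.1 kb upstream (chr15:101247889-101248430) had no peak among the 49000 in hi-77+/+ empty libraries and scores of 59.9, 72.0, 60.8 and 70.1 in hi-77-/- empty libraries. With GATA2 it scored 0, 0, 17.3 and 0, and with 9aa-Ins 53.3, 53.4, 58.7 and 52.6, so that the 9aa-Ins libraries lay just under the hi-77-/- empty range and above every GATA2 library. The difference was 65.7 (SE 6.56, adjusted p = 3.34e-07) after the deletion and -61.4 (adjusted p = 1.28e-06) with GATA2. In the full lists 2 hi-77+/+ empty and 3 GATA2 libraries had a peak in this region. Regions 43.9 kb and 108.5 kb downstream followed the same course, with mean scores of 0 and 3.41 in hi-77+/+ empty, 39.6 and 59.9 in hi-77-/- empty, 3.08 and 0 in GATA2 and 32.8 and 45.8 in 9aa-Ins libraries. The second of these lies in an intron of Krt80, a keratin gene. Full lists held a peak at 43.9 kb in 2 hi-77+/+ empty and 2 GATA2 libraries. At 108.5 kb they held one in 3 hi-77+/+ empty libraries and in no GATA2 library.

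At Nr4a1, 3 other regions rose with GATA2. The region 106.2 kb upstream (chr15:101147881-101148292), whose sequence with a pair of GATA matches is printed above, scored 18.1, 61.7, 44.3 and 44.4 with GATA2 and 0 in all hi-77-/- empty and 9aa-Ins libraries. It also had a peak in 2 hi-77+/+ empty libraries, at 15.2 and 28.0, and the full lists held one in 4 hi-77+/+ empty, 1 hi-77-/- empty and 1 9aa-Ins library. Its rise with GATA2 was 42.1. No p is given, since this region reached the 4 libraries that limma required only with those of GATA2. A neighbor 106.8 kb upstream scored 74.9, 55.1, 61.3 and 71.8 with GATA2 against 0, 29.9, 8.51 and 7.53 in hi-77-/- empty libraries, a difference of 54.3 (SE 8.80, adjusted p = 0.000124), and 0, 0, 0 and 6.79 with 9aa-Ins. Its difference after the deletion was -24.2 (limma adjusted p = 0.0346), a call lost without hi-77+/+ empty replicate 1 or 4 or hi-77-/- empty replicate 1, 3 or 4. Full lists held a peak in this neighbor in all 4 libraries of every group, ranked 22210 to 41549 in hi-77+/+ empty. The third, 110.4 kb downstream and also in a Krt80 intron, scored 36.7 to 49 with GATA2 and 0 in the 12 other libraries among the 49000, with an adjusted p of 2.61e-06. In the full lists it had weak peaks in 2 hi-77+/+ empty libraries, and no hi-77-/- empty or 9aa-Ins library had any. The nearest protein-coding gene to both upstream regions was Acvrl1, which encodes a TGF-beta family receptor. The Nr4a1 promoter was weak, at 0 to 50.4 in hi-77+/+ empty and 24.3 to 49.3 in hi-77-/- empty libraries, and did not pass the threshold after the deletion (adjusted p = 0.133) or with GATA2 (adjusted p = 0.0570). It was higher by 29.0 with 9aa-Ins than with GATA2 (limma adjusted p = 0.0377). That call was lost without replicate 1, 3 or 4 of 9aa-Ins or of GATA2 (adjusted p up to 0.107).

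Zeb2 (ENSMUSG00000026872.17, chr2:44983632-45117395, minus strand) had a pair of intron regions with a peak among the 49000 in 9aa-Ins libraries alone. A region 31.7 kb downstream of the 5′ end (chr2:45085552-45085903) scored 14.8, 22.6, 18.3 and 21.9 with 9aa-Ins, and the full lists of the 12 other libraries held no peak there. The rise over hi-77-/- empty was 19.4. No p is given, since this region entered limma through its 9aa-Ins libraries alone. A weaker intron region 67.3 kb downstream also opened by presence, with scores of 7.76, 3.24, 3.07 and 15.0, but did not pass limma (adjusted p = 0.262). A region 144.8 kb upstream (chr2:45261968-45262458) had the deletion pattern instead: it scored 44.5, 42.0, 46.4 and 41.8 in hi-77-/- empty, 48.3, 66.8, 73.4 and 58.9 in 9aa-Ins and at most 2.77 in hi-77+/+ empty and GATA2 libraries. That difference was 43.7 (SE 6.55, adjusted p = 3.10e-05) after the deletion and -43.0 (adjusted p = 5.96e-05) with GATA2. The promoter region, 0.2 kb inside the gene, was weak and variable in all groups, with scores from 0 to 45.8, and passed in no comparison.

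Among the regulators of classical dendritic cells, Id2 (ENSMUSG00000020644.9, chr12:25093799-25097140, minus strand) had the most regions opened after the deletion. A region 22.4 kb upstream (chr12:25119252-25119800), printed above, had no peak among the 49000 of any hi-77+/+ empty library and scored 85.1, 84.4, 82.2 and 86.8 in hi-77-/- empty libraries. The rise was 84.6 (SE 6.28, adjusted p = 1.24e-08). In the full lists all 4 hi-77+/+ empty libraries had a peak there, ranked between 58348 and 82151, so the site was weak rather than closed. With GATA2 it scored 59.0, 66.9, 28.5 and 56.4, a fall of 31.9 (adjusted p = 0.000830), and with 9aa-Ins 84.6, 82.8, 87.3 and 82.9, which overlapped the hi-77-/- empty range. GATA2 libraries thus lay between the hi-77+/+ empty and hi-77-/- empty libraries at this site, without overlap with either.

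Farther upstream of Id2, a pair of regions at 67.8 and 68.7 kb opened after the deletion and closed with GATA2. The first (chr12:25164732-25165178) scored 44.5, 50.8, 63.5 and 55.1 in hi-77-/- empty and 45.5, 53.4, 67.1 and 60.7 in 9aa-Ins libraries, and 0 in the other 8. This region also had a weak peak in the full lists of 2 hi-77+/+ empty and 2 GATA2 libraries. Its difference was 53.5 (SE 6.71) after the deletion (adjusted p = 4.46e-06) and -53.5 with GATA2 (adjusted p = 7.18e-06). With lists of 50% of the length these were 9.97 (adjusted p = 0.215) and -9.97 (adjusted p = 0.311), and neither passed. The second (chr12:25165645-25166100) scored 32.4 to 59.6 and 30.5 to 44.3 in the same libraries and 0 in the others, although the full list of 1 hi-77+/+ empty library held a peak there. A region 119.8 kb upstream had the same calls at lower scores, 39.0, 11.5, 8.51 and 25.1 in hi-77-/- empty libraries, but only 1 of 4 9aa-Ins libraries had a peak there, and its fall with GATA2 (adjusted p = 0.0304) was lost without hi-77-/- empty replicate 1 or 4 or without any single GATA2 library (adjusted p up to 0.107). Of 18 tested Id2 regions, 9 had higher scores after the deletion and 1 lower (over all regions tested, 21.2% and 19.2%). With GATA2 2 of the 18 Id2 regions were higher and 7 lower (over all, 8.5% and 12.4%). Of these regions 4, chosen after their values were seen, lay upstream and had peaks in every group: means in hi-77+/+ empty, hi-77-/- empty, GATA2 and 9aa-Ins libraries were 26.8, 78.2, 35.4 and 78.8 at 60.3 kb, 18.9, 66, 38.1 and 74.8 at 80.9 kb, 68.8, 94.8, 85.6 and 94.6 at 92.6 kb, and 40.1, 78.1, 31.4 and 73.5 at 112.0 kb. They are given as a description, since they were picked for this course.

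A single Id2 region had peaks with GATA2 alone. It lay 131.8 kb upstream (chr12:25228819-25229067), and its central 200 bp held 4 GATA matches. It scored 36.7, 46.3, 44.3 and 23.2 with GATA2, and neither the 49000 nor the full lists of the 12 other libraries held a peak there. The rise was 37.6. No p is given, since this region entered limma through its GATA2 libraries alone. A region 123.2 kb downstream, nearest to Kidins220, rose with the deletion from 0 to 23.2 ± 12.1 (SD, n = 4; adjusted p = 0.0431) and again with GATA2 to 58.0 ± 4.65 (SD, n = 4; adjusted p = 0.00723). The first step was lost without any single hi-77+/+ empty library and without hi-77-/- empty replicate 3 or 4 (adjusted p up to 0.121), and the second held without each of the 16 libraries but was 20.8 (adjusted p = 0.227) with the full lists and 36.4 (adjusted p = 0.0832) where a peak had to cover 50% of the region. The Id2 promoter was accessible everywhere, at 79.7 to 92.1, and passed in no comparison.

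Batf3 (ENSMUSG00000026630.9, chr1:191097847-191108945, plus strand) lost accessibility on its upstream side after the deletion. A region 42.3 kb upstream (chr1:191055327-191055744), in an intron of Tatdn3, scored 32.6, 77.7, 39.9 and 74.4 in hi-77+/+ empty and 0 in all hi-77-/- empty libraries, a fall of 56.2 (SE 10.8, adjusted p = 0.000389). With GATA2 it scored 0, 12.3, 54.4 and 23.2, and the rise over hi-77-/- empty did not pass (adjusted p = 0.162). Its neighbor 40.2 kb upstream scored 24.2, 36.8, 4.83 and 17.4 in hi-77+/+ empty libraries, and no peak was present in the full lists of the 12 hi-77-/- libraries. Near the promoter, 0.6 kb inside the 5′ UTR, scores were 45.0, 36.8, 33.2 and 36.5 in hi-77+/+ empty and 0, 2.81, 1.16 and 17.3 in hi-77-/- empty libraries, a mean fall of 32.6. No p is given, since this region reached the 4 libraries that limma required only with those of hi-77+/+ empty. GATA2 and 9aa-Ins libraries had no peak among the 49000 at that promoter region, though the full lists held one in 2 and 4 libraries.

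The downstream side of Batf3, which reaches into Atf3, a stress-induced factor of the same AP-1 superfamily, lost accessibility with GATA2. A region 68.6 kb downstream (chr1:191166205-191166752) scored 58.0, 60.1, 50.4 and 54.7 in hi-77+/+ empty, 71.2, 68.4, 66 and 65.4 in hi-77-/- empty and 64.2, 57.4, 64.0 and 70.9 in 9aa-Ins libraries, and 0 in all 4 GATA2 libraries. The fall with GATA2 was 67.7 (SE 5.41, adjusted p = 8.75e-08). It was 1 of 3 regions closed with GATA2 that did have peaks in hi-77+/+ empty libraries, and the only one present in all 4. In an Atf3 intron 100.3 kb downstream (chr1:191197804-191198416), scores were 33.2 to 55.6 in hi-77+/+ empty, 79.6 to 84.4 in hi-77-/- empty, 0 to 24.1 in GATA2 and 73.0 to 80.3 in 9aa-Ins libraries. There the deletion added 35.1 (SE 6.22, adjusted p = 0.000179), which became 17.1 (adjusted p = 0.120) with the full lists, and GATA2 took away 70.6 (adjusted p = 1.96e-07). A region 26.1 kb downstream, nearest to Batf3, scored 38.8, 57.4, 49.3 and 60.7 with 9aa-Ins against 39.0, 0, 0 and 1.01 in hi-77-/- empty libraries, a rise of 41.6 (SE 8.19, adjusted p = 0.00268), which did not pass when the 2 groups were fitted alone (adjusted p = 0.0708). Regions 88.0, 96.0 and 132.7 kb downstream were also called by presence, with mean scores of at most 25.4 in any group. The score at 96.0 kb rose by 16.2 after the deletion (adjusted p = 0.0412), which was lost without any single hi-77+/+ empty library and without hi-77-/- empty replicate 1, 2 or 3 (adjusted p up to 0.137) and was -14.5 with the full lists.

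Irf4 (ENSMUSG00000021356.10, chr13:30749226-30766976, plus strand) lost its strongest downstream site with GATA2. The region 64.3 kb downstream (chr13:30813223-30813795), printed above, scored 49.2, 54.3, 60.8 and 71.5 in hi-77-/- empty and 61.0, 61.0, 67.1 and 68.3 in 9aa-Ins libraries. It scored 0, 0, 0 and 5.74 in hi-77+/+ empty libraries, and the full lists of the GATA2 libraries held no peak there. The difference was 57.5 (SE 6.53, adjusted p = 1.41e-06) after the deletion, -58.9 (adjusted p = 1.86e-06) with GATA2 and 5.40 (adjusted p = 0.818) with 9aa-Ins. The fall with GATA2 was -18.3 (adjusted p = 0.0688) with lists of 50% of the length, and where a peak had to cover 50% of the region the differences were 31.4 (adjusted p = 0.0769) after the deletion and -31.4 (adjusted p = 0.121) with GATA2, none of which passed. At 39.1 kb downstream, in an exon of the noncoding gene Gm29675, 9aa-Ins libraries scored 26.1, 43.0, 18.3 and 21.9 and GATA2 libraries 0, a difference of 27.3 (SE 7.99, adjusted p = 0.0158) that was 22.1 (adjusted p = 0.0639) without 9aa-Ins replicate 2 and 17.3 (adjusted p = 0.262) where a peak had to cover 50% of the region. GATA2 against hi-77-/- empty gave -24.0 there (limma adjusted p = 0.0376), a call lost without any single GATA2 library or hi-77-/- empty replicate 1, 2 or 4. Full lists held a peak there in all 4 libraries of each empty group and of 9aa-Ins and in no GATA2 library. After the deletion the promoter, at the 5′ UTR, moved opposite to the region at 64.3 kb. It scored 54.2, 27.7, 33.2 and 28.0 in hi-77+/+ empty and 0, 29.9, 0 and 0 in hi-77-/- empty libraries, a fall of 28.3 (SE 9.30, adjusted p = 0.0204). That call was lost without hi-77+/+ empty replicate 1 or without hi-77-/- empty replicate 1, 3 or 4 (adjusted p up to 0.0759). Promoter scores were 0, 0, 5.56 and 23.2 with GATA2 and 7.76, 39.7, 39.5 and 27.9 with 9aa-Ins, and neither passed against hi-77-/- empty.

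**Figure D3:**
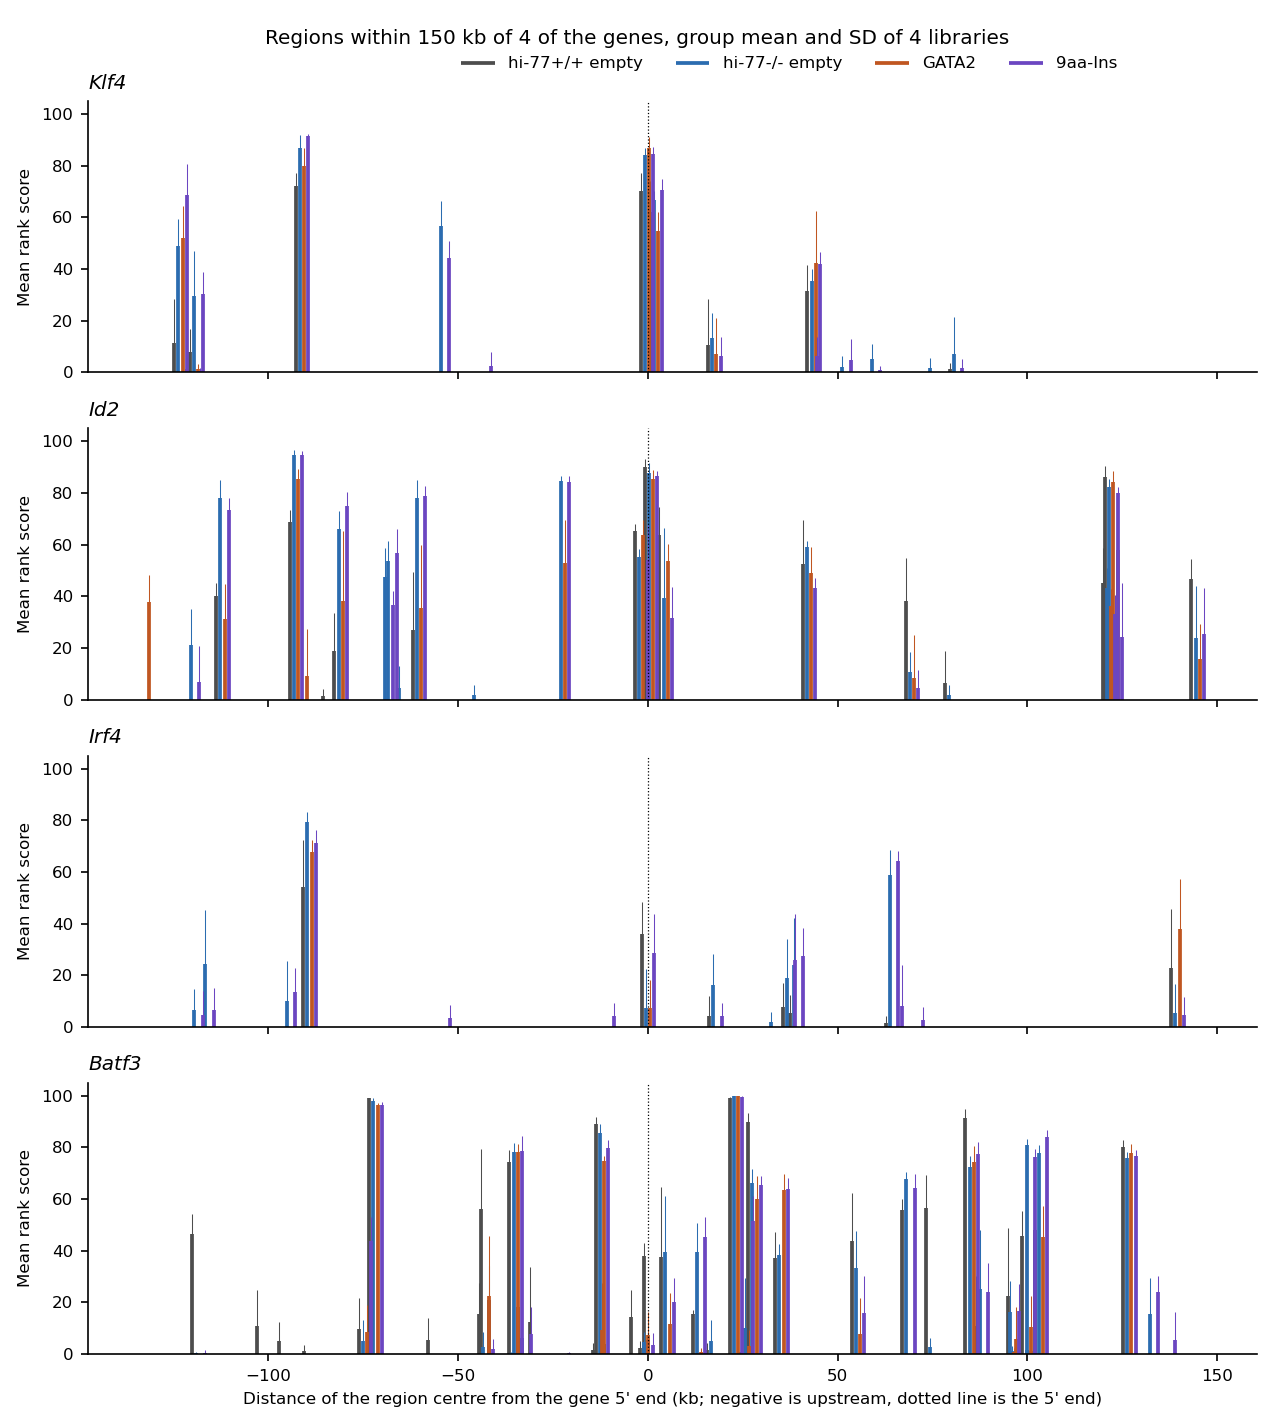
Mean rank score (vertical axes) of each region within 150 kb of Klf4, Id2, Irf4 and Batf3 by its distance from the gene 5′ end (horizontal axis, kb), with 1 bar per group and the SD of 4 libraries as thin lines. At Klf4 -53.9 kb, Id2 -67.8 kb and Irf4 +64.3 kb only the hi-77-/- empty and 9aa-Ins bars are tall, with means of 44.2 to 64.3, and at Batf3 +68.6 kb only the GATA2 bar is missing.

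Zbtb46 (ENSMUSG00000027583.13, chr2:181387762-181459426, minus strand) lies among 12 other protein-coding genes in its window, and most of its regions were nearest to those. A region 28.5 kb upstream (chr2:181487475-181488323), nearest to Abhd16b, scored 49.2, 62.4, 46.4 and 49.3 in hi-77-/- empty and 0 in all hi-77+/+ empty and GATA2 libraries. Full lists held a peak there in all 4 hi-77+/+ empty libraries and in 1 GATA2 library. With 9aa-Ins it scored 2.01, 32.2, 24.9 and 21.9, all below hi-77-/- empty, and this fall of 31.6 (SE 6.78, adjusted p = 0.00522) was the only one near the 8 genes that passed with 9aa-Ins relative to hi-77-/- empty. It became 9.45 (adjusted p = 0.558) with the full lists. GATA2 opened a region 119.0 kb upstream in an intron of Uckl1, with scores of 18.1, 24.1, 37.5 and 49, and the full lists of the 12 other libraries held no peak there. 9aa-Ins opened a region 94.6 kb upstream in a UTR of Dnajc5, with scores of 50.9, 57.4, 62.4 and 47.4 against 0 in all hi-77-/- empty libraries (adjusted p = 2.67e-05). The score there was higher by 43.7 with 9aa-Ins than with GATA2 (limma adjusted p = 4.56e-05). Full lists held a peak there in 3 hi-77+/+ empty and 3 GATA2 libraries and in no hi-77-/- empty library. A region 83.4 kb downstream closed after the deletion, from 3.85, 44.2, 58.4 and 54.7 to 0. No p is given, since this region reached the 4 libraries that limma required only with those of hi-77+/+ empty. The Zbtb46 promoter scored 54.7 to 85.1 over the 16 libraries and passed in no comparison.

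Tcf4 (ENSMUSG00000053477.17, chr18:69343356-69689079, plus strand), the plasmacytoid regulator, had an accessible promoter in every library, at 79.7 to 92.8 in hi-77+/+ empty and 92.1 to 95.4 in hi-77-/- empty libraries. The rise of 7.22 (SE 2.03, adjusted p = 0.00789) became 2.73 (adjusted p = 0.111) with the full lists. Its largest change was in an intron 89.8 kb downstream of the 5′ end (chr18:69432882-69433495). This region scored 59.0, 61.7, 68.8 and 73.3 with GATA2 and had no peak among the 49000 of the 12 other libraries, a rise of 65.7. No p is given, since the region entered limma through its GATA2 libraries alone. The full lists held weaker peaks there in 2 hi-77-/- empty and 4 9aa-Ins libraries and in no hi-77+/+ empty library, so it did not resemble the hi-77+/+ empty state. A region 5.2 kb upstream scored 14.8, 27.7, 46.4 and 44.3 with 9aa-Ins and 18.1, 33.2, 17.3 and 0 with GATA2, against 0 in both empty groups. In the full lists this region had a peak in 2 hi-77+/+ empty, 3 hi-77-/- empty, 4 GATA2 and 4 9aa-Ins libraries. The rise over hi-77-/- empty was 33.3 with 9aa-Ins and 17.2 with GATA2 (limma adjusted p = 0.118). The difference between the vectors was 16.1 (adjusted p = 0.132). No p is given for the rise with 9aa-Ins, since this region reached the 4 libraries that limma required only with those of 9aa-Ins.

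**Figure D4:**
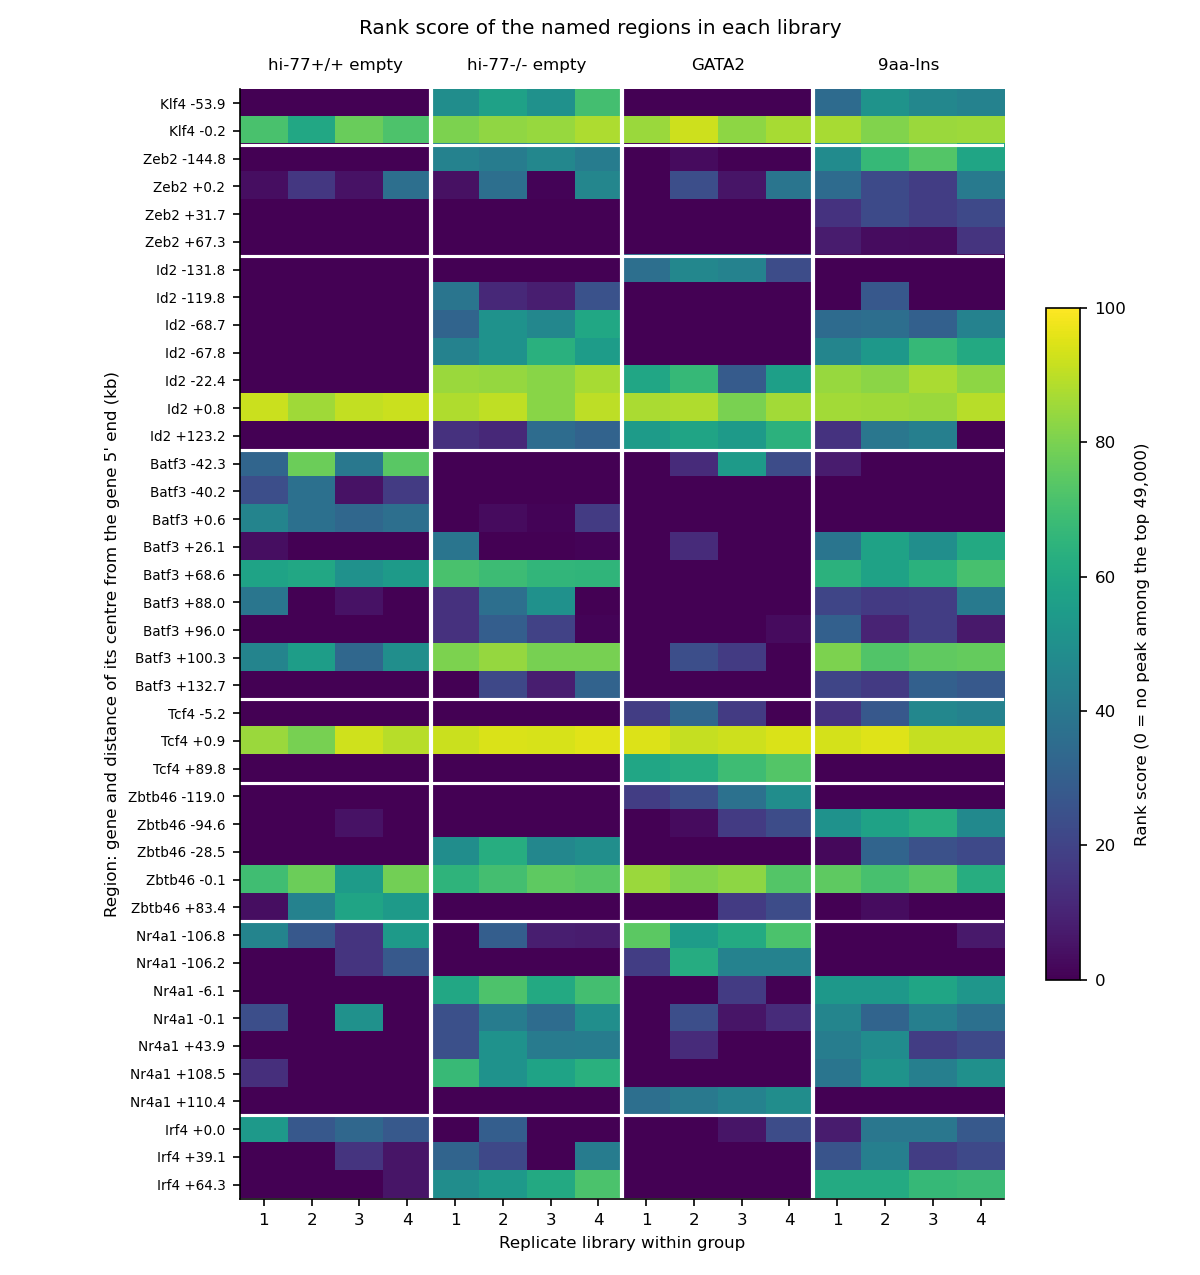
Rank score (color, 0 to 100) of 40 regions near the 8 genes (rows, with gene and distance of the region centre from the 5′ end in kb) in the 16 libraries (columns, by group and replicate). Rows that are dark in hi-77+/+ empty and GATA2 and lighter in hi-77-/- empty and 9aa-Ins libraries recur at Klf4, Zeb2, Id2, Nr4a1 and Irf4, and rows lit in GATA2 libraries alone occur at Id2, Tcf4, Zbtb46 and Nr4a1.

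GATA letters were frequent in the regions opened by GATA2. All 5 regions opened by GATA2 near the 8 genes held at least 1 GATA match in the central 200 bp, against 74.8% of all 1565 regions so called and 26.3% of all 90549 regions. Of the 8 regions closed by GATA2, 2 held a match (25%), against 16.8% of all 2021 such regions. Of the 11 regions opened by the deletion 5 held a match (45.5%, against 22.9% of 3251), and of the 4 opened by 9aa-Ins none did. Over the 225 regions the share with a GATA match was 23.6%, with a PU.1-type ETS match 6.67% (6.85% of all regions), with AP-1 12.9% (10.5%), with C/EBP 12.4% (10.8%), with RUNX 21.8% (23.9%), with IRF 1.78% (2.16%) and with an E-box 61.8% (66.6%). With 5 to 11 regions in a set these shares are descriptions only.

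Around other genes of the same programs presence calls and rank scores gave different balances with GATA2. Around 35 other transcription factors of monocytes and dendritic cells, such as Irf8, Spi1 and Cebpa, GATA2 opened 30 of 1079 regions (2.78%, against 1.73% of all regions) and closed 17 (1.58%, against 2.23%), whereas in limma 76 of 690 tested regions were higher and 85 lower. The deletion opened 28 (2.59%, against 3.59%) and closed 13 (1.20%, against 2.11%), with 130 higher and 122 lower in limma. Around 30 receptors and effectors, such as Csf1r, Csf2rb and Lyz2, GATA2 opened 25 of 833 regions (3.00%) and closed 16 (1.92%), and 66 of 574 tested regions were higher and 67 lower. The deletion opened 28 (3.36%) and closed 23 (2.76%), with 124 higher and 116 lower. 9aa-Ins opened 16 regions (1.48%, against 1.35% of all regions) and closed 1 (0.0927%, against 0.171%) in the first list and opened 19 (2.28%) and closed 1 (0.12%) in the second, and in limma 42 and 37 regions were higher and 9 and 5 lower. Over all regions tested in limma, 8.5% were higher and 12.4% lower with GATA2, 21.2% and 19.2% after the deletion, and 5.29% and 1.75% with 9aa-Ins. The shares around these genes were not tested.

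The following genes were among those with the most calls in their lists, and their regions were picked for these calls. Over all regions the deletion opened 3.59%, GATA2 opened 1.73% and closed 2.23%, and 9aa-Ins opened 1.35%. Irf8, which directs monocyte and cDC1 fate, had 5 of 51 regions closed and 0 opened by GATA2. Those closed at -125.4 and -10.9 kb did not pass limma with GATA2 (adjusted p = 0.0577 and 0.0647). Csf1r, the receptor of the monocyte growth factor M-CSF, had 7 of 39 regions opened by the deletion. Its region 8.2 kb downstream of the 5′ end rose from 0 to 72.7 ± 7.83 and stood at 5.81 ± 11.6 with GATA2 and 62.5 ± 8.38 with 9aa-Ins (SD, n = 4). Csf2rb, the common beta chain of the GM-CSF receptor, had 3 of 43 regions opened and 2 closed by GATA2. Those opened lay 12.7, 7.2 and 3.8 kb upstream, with means of 32.2, 51.8 and 40.6, and were 0 in the other groups. Those closed lay at -115.3 and +76 kb, with means of 51.8 and 57.3 in hi-77-/- empty libraries and 0 with GATA2. Lyz2, the lysozyme gene of mature myeloid cells, had 5 of 29 regions opened by 9aa-Ins and 3 by GATA2. The strongest of the 5, at -130.5 kb, averaged 56.3 with 9aa-Ins and 45.8 with GATA2, and the one 136.6 kb downstream did not pass limma with 9aa-Ins (adjusted p = 0.0897). Ly6c2, which encodes a monocyte surface marker, had 5 of 25 regions opened by 9aa-Ins and 0 by GATA2, and its promoter scored 46 ± 5.25 (SD, n = 4) with 9aa-Ins and 0 in the 12 other libraries. The same 5 regions also lay within 150 kb of Ly6c1. Those at +119.8, +90.5 and +89.4 kb from Ly6c2 were nearer to Ly6c1, at +56.7, +27.3 and +26.3 kb.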

How the data were processed

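ATAC-Seq was performed on 16 libraries in 4 groups of 4, assigned from the labels. The authors trimmed reads with Trim Galore 0.4.1, aligned them to mm10 (GRCm38) with Bowtie2 2.2.5, used Picard 2.26.0, kept uniquely mapped tags and shifted read ends by +4 and -5 bp to account for how the transposase inserts. They ran MACS2 on every library by itself without a shifting model. The study names the option for a constant background for hi-77-/- libraries, and whether hi-77+/+ libraries were called the same way is not given in the sources used here. For each peak the deposited lists hold an integer score, a fold enrichment (a ratio, with the summit pileup over the expected background), -log10 p and -log10 q, and the offset of the summit, none of them normalized between libraries. Longer lists hold more weak peaks, and read counts were not used here, so neither depth nor counting intervals are given.

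From each list the 49000 peaks of highest -log10 p on chromosomes 1 to 19 and X were kept. At that limit 4.91% to 18.6% of the kept number were tied. Ties were cut by fold and then position, and tied peaks shared the middle of their ranks, since the planned rule did not cover ties. Peaks overlapping by at least 1 bp were merged, and a merged region counts as present where any kept peak overlaps it. limma 3.58.1 in R 4.3.3 (trend and robust) was fitted to rank scores of all 16 libraries, with Benjamini-Hochberg adjustment over 57174 regions that had a peak in at least 4 libraries, and SE is the standard error of a fitted difference. Some regions passed this filter only through the group where they scored high, so a p would follow from that selection. For most such regions named here the difference is given without a p. For peak numbers per gene, two-sided exact permutation tests were computed over all 70 arrangements of the libraries, adjusted over 20680 protein-coding genes of GENCODE M21 with a peak. An example was checked against scipy 1.17.1. The limma step was tested on simulated data. Region names follow a rule that takes promoters, presence calls and the largest limma difference for each gene and comparison, which gave 40 regions and 28 when limited to 4 for each gene. Regions outside these 28 were chosen after their values were seen. The members and gene lists were chosen with earlier results of these data known. Lists of genes and markers were compared by counts only. Alternatives changed list length, q threshold, peak width, overlap, window, presence rule, ties, filter, samples in the fit and replicate block, and alternatives for ties were chosen after seeing the data.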

Additional observations from a re-analysis of the deposited data

Results flagged for a closer look

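In 138 groups of 4 libraries, 26 had 1 library that stood apart from the other 3 by a share of the group's range above Dixon's 95% critical value, where chance gives about 7. Many of these were groups with the same value in the other 3 libraries, in which any different value is past that limit. No explanation was weighed.

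Peak numbers stood apart in 7 groups. Klf4 had 9 peaks in 9aa-Ins replicate 4 and 10 in the others, and Zeb2 had 7 in GATA2 replicate 1 and 12 in the others. Id2 had 14 peaks in hi-77+/+ empty replicate 4 against 13, and 21 in hi-77-/- empty replicate 4 against 17. Tcf4 had 4 in hi-77+/+ empty replicate 3 against 2, and 3 in GATA2 replicate 4 against 4. Irf4 had 6 in hi-77-/- empty replicate 3 against 7.

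Rank scores stood apart where 1 library alone of its group had a peak among the 49000. With GATA2 this was replicate 2 at Zeb2 -144.8 kb (2.77), Batf3 +26.1 kb (12.3) and Nr4a1 +43.9 kb (12.3), replicate 3 at Nr4a1 -6.1 kb (17.3) and replicate 4 at Batf3 +96.0 kb (3.03). With 9aa-Ins it was replicate 1 at Batf3 -42.3 kb (7.76), replicate 2 at Id2 -119.8 kb (27.7) and Zbtb46 +83.4 kb (3.24), and replicate 4 at Nr4a1 -106.8 kb (6.79). In hi-77+/+ empty libraries it was replicate 1 at Batf3 +26.1 kb (3.85) and Nr4a1 +108.5 kb (13.6), replicate 3 at Zbtb46 -94.6 kb (4.83) and replicate 4 at Irf4 +64.3 kb (5.74). In hi-77-/- empty libraries it was replicate 2 at the Irf4 promoter (29.9).

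In the remaining 5 groups other libraries had peaks as well. hi-77-/- empty replicate 4 scored 17.3 at Batf3 +0.6 kb, where the others scored 0 to 2.81. hi-77-/- empty replicate 1 scored 39.0 at Batf3 +26.1 kb (0 to 1.01 in the others), and hi-77+/+ empty replicate 1 scored 39.4 at Batf3 +88.0 kb (0 to 4.83). 9aa-Ins replicate 4 scored 40.9 at Batf3 +88.0 kb (16.8 to 20.9 in the others), and 9aa-Ins replicate 3 scored 58.7 at Nr4a1 -6.1 kb (52.6 to 53.4).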

How the results depend on the processing

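Of 48 presence calls, 48 remained when peaks were ranked by fold, 47 with peaks narrower than 1 kb, 46 and 42 with all tied peaks kept or dropped, 44 with a -log10 q of at least 5, 27 when a peak had to cover 50% of the region, 23 with the full lists and 9 with lists of 50% of the length, and none turned to the opposite call. Counts follow in the order deletion, GATA2, 9aa-Ins and 9aa-Ins against GATA2, where the reported counts opened were 11, 5, 4 and 12, closed 3, 8, 0 and 5, and past limma 62, 40, 8 and 50. With the full lists 5 regions opened after the deletion, 7 with 9aa-Ins and 22 against GATA2, and 23 and 97 passed limma in the last 2 comparisons. With lists of 50% of the length, closings were 1 after the deletion, 1 with 9aa-Ins and 3 against GATA2, 1 region opened with 9aa-Ins, and 39, 5 and 30 passed limma in the deletion, 9aa-Ins and 9aa-Ins against GATA2 comparisons. With a -log10 q of at least 5, 3 regions opened with GATA2 and 3 closed against GATA2. With 50% coverage, 21 opened and 3 closed against GATA2, and 41 (deletion) and 26 (GATA2) passed limma. In a 50 kb window, with fewer regions, openings were 4, 0, 2 and 3, closings 1 with GATA2 and 0 against GATA2, and limma calls 16, 11, 5 and 15. Among regions nearest to the member, 7, 2 and 7 opened and 0, 5 and 2 closed (9aa-Ins, with unmoved counts, left out), and 23, 20, 3 and 26 passed limma. With at least 3 against at most 1 library, 20, 11 and 22 opened (9aa-Ins left out) and 13, 26, 5 and 11 closed.

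Higher and lower limma calls were 41 and 21 after the deletion, 10 and 30 with GATA2, 7 and 1 with 9aa-Ins and 37 and 13 against GATA2. They became 26 and 40 (deletion), 23 and 0 (9aa-Ins) and 91 and 6 (against GATA2) with the full lists, 3 and 2 (9aa-Ins) with lists of 50% of the length, 1 and 10 (GATA2) and 14 and 1 (against GATA2) in the 50 kb window, and 20 and 3, 2 and 18, 3 and 0, and 24 and 2 in the 4 comparisons among nearest regions. Against GATA2 they were 41 and 7 with a -log10 q of at least 5, 35 and 5 without GATA2 replicate 2, and 32 and 6 without replicate 3. The causes were not tested.

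Leaving out 1 library gave 11 to 13, 5 to 7, 4 to 5 and 12 to 15 openings, 3 to 5, 8 to 11, 0 to 2 and 5 to 6 closings, 53 to 63, 30 to 43, 7 to 9 and 38 to 53 limma calls, and 0 genes with an adjusted p under 0.05 in each comparison. Closings after the deletion were 5 without hi-77-/- empty replicate 1 or 2, and those with 9aa-Ins were 2 without hi-77-/- empty replicate 1 and 1 without 9aa-Ins replicate 2. Regions with peaks in 4 libraries only could not be fitted without 1 of them. For 73 named score differences, 1074 values without 1 library kept the call and 50 lost it, and under the other settings 832 kept it, 64 lost it and 1 reversed: Batf3 +96.0 kb after the deletion was -14.5 with the full lists. Of 7 peak number differences, Id2 after the deletion was -0.25 with the full lists and Klf4 against GATA2 -0.25 with lists of 50% of the length. Batf3 had an exact p of 0.0571 without any single hi-77+/+ empty library after the deletion and without any single 9aa-Ins library against GATA2, and Klf4 with GATA2 without GATA2 replicate 3 or 4. Libraries with the same replicate number did not deviate together (24 pairs, r from -0.0545 to 0.0920), so the numbers do not pair them. With a replicate block 63, 38, 8 and 48 regions passed limma. The unknown depth and the list length limit which weak sites can be called absent.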
